A study of Mus musculus with 6 samples.

Results

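The genes described here encode 10 proteins of the focal adhesion plaque, of the 56953 genes in the table. They are the talins Tln1 and Tln2, the kindlin Fermt2, vinculin (Vcl), the PINCH adaptors Lims1 and Lims2, paxillin (Pxn), focal adhesion kinase (Ptk2), zyxin (Zyx) and tensin-1 (Tns1). They were chosen by name, as well-known scaffolds and the kinase of these structures, and each was found once through its Ensembl identifier in the GENCODE annotation. Transcripts were measured by bulk RNA sequencing in mouse embryonic fibroblasts (MEFs), the connective tissue cells of the embryo grown in culture, with 6 libraries, 3 of genotype WT and 3 of genotype GαqKO. The study's methods call the second genotype a knockout of Gαq and Gα11, the G proteins encoded by Gnaq and Gna11, and state that both kinds of MEFs came from another laboratory. All cells were grown in DMEM with fetal bovine serum, penicillin and streptomycin, and no treatment, time point or embryonic age is given in the labels. The 3 libraries of a genotype are stated to be biological replicates, but how many independent lines or embryos stand behind each genotype is not given in the sources used here, so the p-values measure the spread between these libraries.

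Focal adhesions are the sites where a fibroblast holds on to its matrix. Talin and kindlin bind the tails of integrin β subunits and switch integrins on, and talin carries the pull of actin filaments, opening sites for vinculin under load. PINCH bridges integrin-linked kinase (ILK) to other adaptors, paxillin and focal adhesion kinase form the signalling layer, zyxin arrives at adhesions under tension and brings actin assembly factors, and tensin stays with mature adhesions along fibronectin fibres. Several genes of this group, vinculin and zyxin among them, are textbook targets of serum response factor or of other regulators that respond to actin and tension.

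To show the letters that such regulators could read, 300 bases around the start of the Ensembl canonical transcript were taken from GRCm39. They span 250 bases before the start and 50 from the start on. Windows were taken for all members except Lims2, which was not searched. The windows of 3 genes are printed here. Vcl and Zyx hold a searched motif that is uncommon among promoters, and Tln1 is the member with the largest fall. Vcl is shown from chr14:20979216-20979515 (plus strand), Zyx from chr6:42326450-42326749 (plus strand) and Tln1 from chr4:43562373-43562672 (minus strand, printed 5′ to 3′ of the gene). Capitals mark matches to the CArG box of serum response factor, to GGAATG (the core of TEAD sites) and to TGANTCA (the AP-1 core), searched on both strands.
Vcl: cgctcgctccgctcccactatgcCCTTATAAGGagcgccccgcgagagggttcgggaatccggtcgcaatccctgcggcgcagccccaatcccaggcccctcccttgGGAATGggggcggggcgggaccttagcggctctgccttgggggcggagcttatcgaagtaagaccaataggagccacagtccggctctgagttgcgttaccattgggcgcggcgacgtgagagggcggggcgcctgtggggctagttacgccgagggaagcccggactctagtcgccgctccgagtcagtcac
Zyx: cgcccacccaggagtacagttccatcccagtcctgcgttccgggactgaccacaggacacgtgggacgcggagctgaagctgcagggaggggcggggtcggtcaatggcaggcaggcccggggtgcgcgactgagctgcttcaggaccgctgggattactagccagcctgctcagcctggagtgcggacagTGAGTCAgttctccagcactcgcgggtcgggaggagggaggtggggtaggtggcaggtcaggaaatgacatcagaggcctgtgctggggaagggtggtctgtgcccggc
Tln1: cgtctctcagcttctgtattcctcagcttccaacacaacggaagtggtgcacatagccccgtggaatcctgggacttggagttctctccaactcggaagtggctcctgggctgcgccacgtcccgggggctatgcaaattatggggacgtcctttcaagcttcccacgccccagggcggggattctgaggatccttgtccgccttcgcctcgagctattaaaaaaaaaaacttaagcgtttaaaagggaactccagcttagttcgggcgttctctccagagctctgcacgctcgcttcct

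The CArG box was present in 1.55% of 21651 protein-coding promoters of the same length and in 1 of the 9 members searched, Vcl, at positions -227 to -218 from the start. GGAATG was present in 14% of promoters and again in Vcl alone among the 9 members searched, at -143 to -138. TGANTCA was present in 7.16% of promoters and in 1 of 9 members, Zyx, as TGAGTCA at -59 to -53. These motifs did not overlap each other in the members searched. The GC box GGGCGG, which is left in lower case, was present in 42.6% of promoters and in 7 of the 9 members, with 4 matches in Vcl and 4 in Lims1, some of which overlap or adjoin. Tln2 and Tns1 held none of the 4 motifs in this window. Which start these cells used is not known from the table, so the matches describe letters only.

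The genotype labels were checked on the targeted genes. Gnaq had 1665.5, 1660.2 and 1747 normalized counts in the WT libraries and 1959.7, 1931 and 1888 in the libraries labelled GαqKO. Gna11 had 2141, 2179.9 and 2123 in WT and 472.3, 463.7 and 418.9 in GαqKO. The Gna11 transcript was thus lower in every library labelled GαqKO. The Gnaq transcript was not lower, and was called higher by 13.9% (log2 fold change 0.19, limma adjusted p = 0.00212). Every direction below is therefore drawn from the labels. A normalized count is the number of reads on a gene divided by 1 scaling factor per library, and the reads themselves could be recovered in 5 libraries, at 9853000 to 12229175 per library.

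Markers of some other cells, but not of all, differed between the groups. Of all tested genes, 31.8% were higher and 34.1% lower in GαqKO (limma adjusted p under 0.05). Of 12 fibroblast markers, 11 were tested, of which 4 were higher and 7 lower. Among the lower ones, all still abundant, were Col1a1 (15324 to 17402 normalized counts in WT and 5461 to 5952 in GαqKO, log2 fold change -1.53), Col5a1 (-1.55), Fn1 (-0.73) and Vim (-0.32). Among the higher ones, Pdgfra went from 17.5 to 21.9 normalized counts in WT to 2274 to 2356 in GαqKO, Dcn from 30.1 to 35.5 up to 1604 to 1709.96, and Thy1 from 0 to 2.09 up to 59.0 to 76.5. The 7 epithelial markers summed to between 1044 and 1143 normalized counts in WT and between 11 and 30.1 in GαqKO, carried by Cdh1, Krt14 and Krt19, with Krt5 under 3 counts throughout. The 7 endothelial markers summed to 14.5 to 32.4 in WT and 19.7 to 48.6 in GαqKO, the 7 macrophage markers to 210.6 to 225.3 and 438.5 to 471.8 (Cd14 was higher in GαqKO, Cd68 was lower, Csf1r was not called and the other 4 were not tested), the 6 smooth muscle markers to 1591 to 1750.5 and 1209.5 to 1275, the 7 skeletal muscle markers to 10.2 to 18.5 and 10.4 to 18.1, and the 6 neural and glial markers to 843.7 to 956.9 and 588.0 to 617.4. The part of these differences in the results below was not tested. In bulk RNA, fewer cells of a type and less RNA per cell cannot be told apart.

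The focal adhesion scaffold genes were lower in GαqKO, with the exception of Tln2 and of Lims2, which was barely counted. Of the 10 genes, 9 could be tested: 8 were lower, with log2 fold changes (GαqKO minus WT) from -0.94 to -0.14, and Tln2 was higher by 36.1%. Tln1, Tns1 and Lims1 differed most, Zyx, Pxn and Vcl followed, and Ptk2 and Fermt2 differed least. In the same fit, 34.1% of 14096 tested genes were called lower and 31.8% higher, at a Benjamini-Hochberg adjusted p under 0.05 in limma on log2(normalized count + 1). The median log2 fold change over the 9 genes was -0.36, and over all tested genes it was -0.01. For tested genes with 8000 or more exon bases, a class that holds every tested member but Fermt2, the median was -0.07. For genes under 2000 exon bases it was 0.09. The part of gene length in the members' values was not tested. No member passed the study's further threshold of a log2 fold change over 1 or under -1 by limma, although 9 had an unadjusted p under 0.05, and edgeR and DESeq2 on the recovered reads also put 0 past it, against 10.2% of all genes past it upward and 10.5% downward. The WT and GαqKO libraries did not overlap for any of the 9, which was also the case for 69.6% of all tested genes. All 9 had over 180 normalized counts in every library, so none entered the test through its higher group alone.

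**Figure D1:**
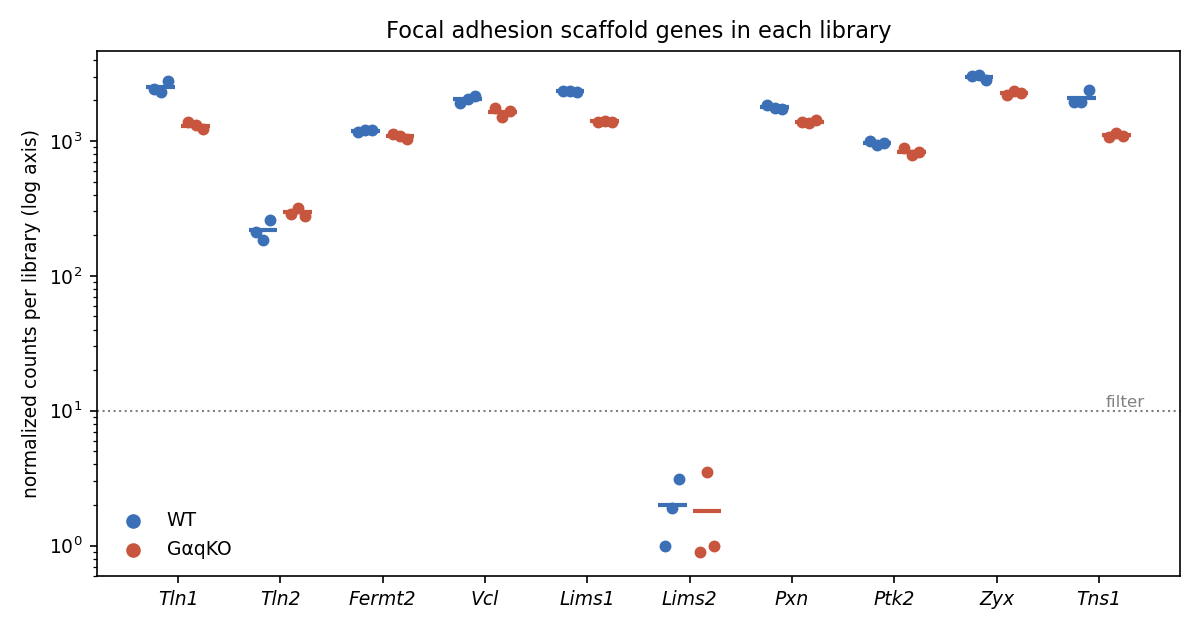
Normalized counts of the 10 scaffold genes in each library on a log axis, with points for single libraries (WT blue, GαqKO red), bars for group means and a dotted line at the filter of 10 normalized counts. The red points lie under the blue ones for 8 genes and above them for Tln2, while Lims2 stays under the filter in all libraries.

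The talins moved in opposite directions. Tln1 (ENSMUSG00000028465.17; GRCm39 chromosome 4, 43531513 to 43562691, minus strand), the widely expressed talin, had 2433, 2308 and 2769.6 normalized counts in the WT libraries and 1372, 1308 and 1223.5 in the GαqKO libraries. The lowest WT library lay far above the highest GαqKO library, and WT replicate 3 was the highest of all. On the log2 scale Tln1 changed by -0.94 (SE 0.066, 95% interval -1.08 to -0.80, limma adjusted p = 2.27e-08), so that its level fell by 47.9%. Tested genes of chromosome 4 had a median log2 fold change of -0.35, and with that median removed the value for Tln1 was -0.59. Without WT replicate 3, the change of Tln1 was -0.87. In that library, genes with 8000 or more exon bases had a median deviation of 0.055 (log2) from the mean of the other WT libraries. For genes under 2000 bases the median deviation was -0.087. WT replicate 1 departed the other way, at -0.047 for the long and 0.074 for the short genes.

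Tln2 (ENSMUSG00000052698.16; chromosome 9, 67124369 to 67466985, minus strand), the second talin, best known from muscle and brain, had 212, 183.6 and 261.6 normalized counts in WT and 289.2, 320.3 and 277.9 in GαqKO. All 3 GαqKO libraries were above the WT libraries, and WT replicate 3 was the nearest to them. Its log2 fold change was 0.44 (SE 0.12, 95% interval 0.18 to 0.71, limma adjusted p = 0.00553), and fits that omitted 1 library at a time gave 0.33 to 0.58. No exon base of Tln2 lies inside another annotated gene, so its reads are not shared with a neighbour.

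Fermt2 (ENSMUSG00000037712.18; chromosome 14, 45696239 to 45767770, minus strand) encodes kindlin-2, the kindlin of fibroblasts and a partner of talin in integrin activation. It had 1165, 1212 and 1196 normalized counts in WT and 1116.5, 1097 and 1031 in GαqKO. The groups were close but did not overlap. The change, -0.14 on the log2 scale (SE 0.051, 95% interval -0.25 to -0.03, limma adjusted p = 0.0276), was the smallest among the members. This call was lost without GαqKO replicate 3 (limma adjusted p = 0.13) and without WT replicate 2 (limma adjusted p = 0.0959), and in edgeR on 5 libraries (adjusted p = 0.207). With the chromosome 14 median of 0.07 removed, its log2 fold change was -0.21.

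Vcl (ENSMUSG00000021823.11; chromosome 14, 20979449 to 21083758, plus strand) encodes vinculin, which binds stretched talin and clamps it to actin. Its normalized counts were 1906, 2051 and 2165 in WT and 1753, 1497 and 1673 in GαqKO. Every GαqKO library was under every WT library, with WT replicate 1 and GαqKO replicate 1 the nearest. Vcl fell by 19.6%, a log2 fold change of -0.32 (SE 0.063, 95% interval -0.45 to -0.18, limma adjusted p = 0.00059). Of its exon bases, 24.6% also lie in exons of the neighbouring gene Ap3m1, and how the counting divided such reads by strand is not given in the sources used here. Among the members searched, Vcl is the one whose promoter, printed above, holds the CArG box.

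The PINCH adaptors differed in level by orders of magnitude. Lims1 (ENSMUSG00000019920.19; chromosome 10, 58159231 to 58260527, plus strand), which encodes PINCH1, had 2362, 2332 and 2303 normalized counts in WT and 1392, 1417.5 and 1373 in GαqKO. The libraries of each group were close together and the groups lay far apart. Lims1 fell by 40.2%, which is -0.74 on the log2 scale (SE 0.043, 95% interval -0.84 to -0.65, limma adjusted p = 3.25e-09). Tested genes of chromosome 10 had a median of -0.28, and with it removed the value for Lims1 was -0.46.

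Lims2 (ENSMUSG00000024395.10; chromosome 18, 32055343 to 32091674, plus strand), the gene of PINCH2, had 1.0, 1.9 and 3.1 normalized counts in WT and 0.9, 3.5 and 1.0 in GαqKO. These are 1 to 3 reads in each of the 5 libraries with recovered reads, at or under the floor of 3 counts set for a detectable level. Lims2 was therefore not tested, and a difference between the groups was not detectable at this depth.

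Paxillin and focal adhesion kinase, the signalling layer, both fell by modest amounts. Pxn (ENSMUSG00000029528.20; chromosome 5, 115644691 to 115694047, plus strand), the adaptor that docks kinases and exchange factors, had 1844, 1765 and 1728 normalized counts in WT and 1375, 1353 and 1430.0 in GαqKO. The gap between the groups was wider than the range within either. Pxn fell by 22.1% (log2 fold change -0.36, SE 0.0475, 95% interval -0.46 to -0.26, limma adjusted p = 1.47e-05). No exon base of Pxn lies within another gene.

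Ptk2 (ENSMUSG00000022607.19; chromosome 15, 73076832 to 73295129, minus strand), which encodes focal adhesion kinase (FAK), had 992, 937.4 and 960.8 normalized counts in WT and 894, 780.5 and 830.8 in GαqKO. The highest GαqKO library was close to the lowest WT library. Ptk2 fell by 13.4% (log2 fold change -0.21, SE 0.060, 95% interval -0.34 to -0.08, limma adjusted p = 0.00773). The call was lost in DESeq2 on 5 libraries (adjusted p = 0.103). Chromosome 15 had a median of 0.16, so with it removed the value for Ptk2 was larger, at -0.37.

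Zyx (ENSMUSG00000029860.17; chromosome 6, 42301575 to 42339894, plus strand) encodes zyxin, a LIM protein that moves between adhesions and stress fibres and to the nucleus. It was the most abundant member, with 3016, 3103 and 2821.5 normalized counts in WT and 2203, 2354 and 2266 in GαqKO. All WT libraries were well above all GαqKO libraries. The level of Zyx fell by 23.6% (log2 fold change -0.39, SE 0.048, 95% interval -0.49 to -0.29, limma adjusted p = 7.55e-06). Within the gene model, 61.1% of exon bases lie inside the spans of other genes and 15.7% inside their exons, Epha1 and Fam131b among them. The AP-1 core in the printed Zyx promoter is the only match to that motif among the members searched.

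Tns1 (ENSMUSG00000055322.17; chromosome 1, 73949390 to 74163731, minus strand) encodes tensin-1, which ties integrin tails to actin in fibrillar adhesions. It had 1958, 1931 and 2381 normalized counts in WT and 1075, 1147 and 1086 in GαqKO. As for Tln1, WT replicate 3 was the highest library, and the GαqKO libraries formed a tight group far below WT. Tns1 fell by 47%, a log2 fold change of -0.92 (SE 0.071, 95% interval -1.07 to -0.76, limma adjusted p = 6.87e-08) that became -0.82 without WT replicate 3. The median of chromosome 1 was -0.02, so the value for Tns1 changed little when it was removed, to -0.89.

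**Figure D2:**
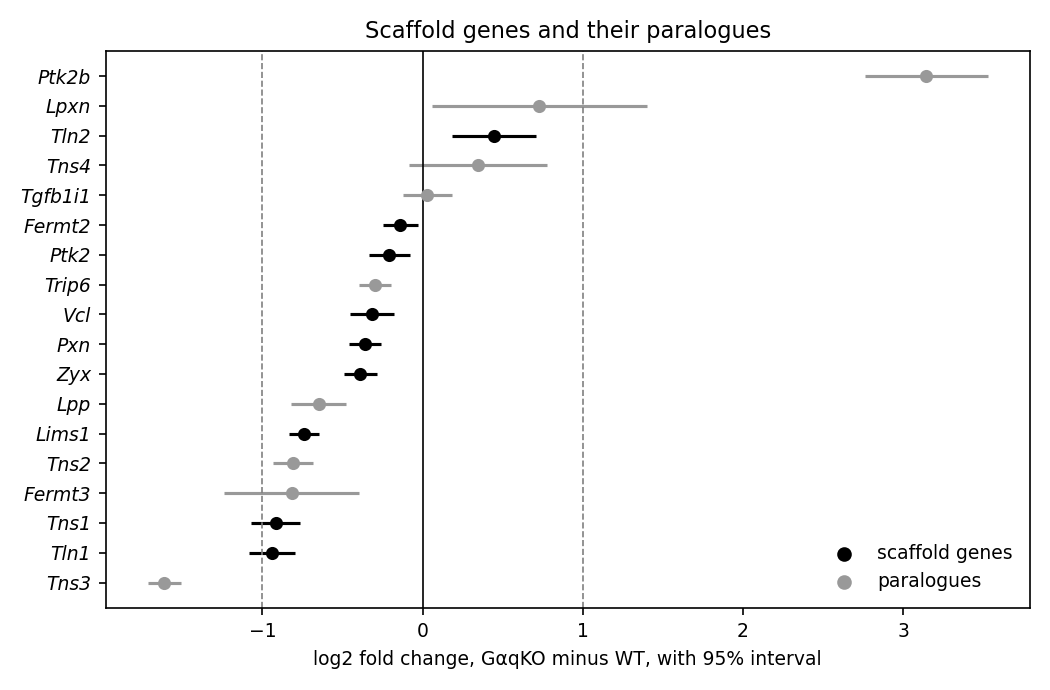
Log2 fold changes (GαqKO minus WT) of the 9 tested scaffold genes in black and of 9 tested paralogues in grey, with 95% intervals from limma and dashed lines at the study's threshold of 1 in either direction. The black points run from -0.94 for Tln1 to 0.44 for Tln2 and lie inside the dashed lines, and Tns3 and Ptk2b lie outside them.

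To compare levels between genes, normalized counts were divided by the kilobases of merged exon. In WT the order was Zyx at 314.7 ± 15.2 per kilobase (SD, n = 3), Lims1 at 260.3 ± 3.27, Tln1 at 255.3 ± 24.3, Vcl at 238.7 ± 15.2, Fermt2 at 207.3 ± 4.15, Pxn at 179.5 ± 5.97, Tns1 at 123.5 ± 14.9, Ptk2 at 76.1 ± 2.16, Tln2 at 11.9 ± 2.15 and Lims2 at 0.61 ± 0.30. Ranges overlapped between Lims1 and Tln1 and between Tln1 and Vcl, so these neighbours did not differ beyond their spread. In GαqKO Zyx again led, at 240.2 ± 8.02, and Tln2 and Lims2 were again last, at 16.1 ± 1.19 and 0.55 ± 0.44. Between them the order changed: Vcl at 192.0 ± 15.3 and Fermt2 at 188.2 ± 7.79 overlapped and came next, Lims1 followed at 155.6 ± 2.52, then the overlapping pair Pxn at 139.8 ± 4.01 and Tln1 at 132.7 ± 7.59, and then the overlapping pair Ptk2 at 66.0 ± 4.49 and Tns1 at 65.2 ± 2.29. Tln1, among the leading scaffolds per length in WT, was thus below vinculin, kindlin-2 and PINCH1 in GαqKO. The reads were aligned to the genome with Bowtie 2, which does not split reads across introns, so a level per kilobase also depends on the sizes of a gene's exons.

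For families with more than 1 member, the balance between paralogues was compared in each library as a log2 ratio of levels per kilobase. Tln2 made up 4.45%, 4.08% and 4.80% of the summed level of both talins in the WT libraries and 10.1%, 11.6% and 10.8% in the GαqKO libraries, with no overlap. The log2 ratio of Tln2 to Tln1 went from -4.42 ± 0.12 to -3.03 ± 0.11 (SD, n = 3), a difference of 1.38 or 2.61-fold (exact permutation test over libraries, two-sided, p = 0.1, 0.125 after Benjamini-Hochberg adjustment over the 5 pairs tested). Talin-1 transcripts thus remained the large majority in both groups. With 3 libraries against 3, this test cannot go below 0.1, so no ratio could pass 0.05.

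Among FAK and its close relative PYK2, encoded by Ptk2b, the shift was wider. Ptk2b had 21.9, 18.5 and 20.4 normalized counts in WT and 183.1, 210.4 and 168.2 in GαqKO, every GαqKO library being several times the highest WT library. The log2 fold change of Ptk2b was 3.14 (SE 0.18, limma adjusted p = 2.58e-09). Its share of the summed Ptk2 and Ptk2b level went from 1.96% ± 0.11 to 17.6% ± 2.42 (SD, n = 3), a 10.1-fold change of the ratio (exact permutation test, two-sided, p = 0.1). FAK transcripts remained the more abundant in every library. Of the exon bases of Ptk2b, 32.9% lie inside the span of Chrna2, and 22.8% lie in exons of another gene.

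Paxillin was compared with Hic-5, a paxillin relative encoded by Tgfb1i1, whose normalized counts were 375.9, 401.2 and 370.5 in WT and 385.9, 388.5 and 396.8 in GαqKO. Those groups overlapped (log2 fold change 0.03, 95% interval -0.12 to 0.19, limma adjusted p = 0.729). As Pxn fell, the log2 ratio of Tgfb1i1 to Pxn was higher by 0.39 in GαqKO, without overlap (exact permutation test, two-sided, p = 0.1).

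All 3 widely expressed tensins were lower. Tns3, which was the most abundant tensin, had 4844, 4868 and 5331.5 normalized counts in WT and 1647, 1669.6 and 1592 in GαqKO. Its log2 fold change of -1.61 (SE 0.048, limma adjusted p = 3.67e-12) was past the study's threshold. Tns2 had 964.8, 959.8 and 893.7 normalized counts in WT and 539, 528.4 and 539.8 in GαqKO, a log2 fold change of -0.81 (SE 0.057, limma adjusted p = 2.79e-08). The log2 ratio of Tns3 to Tns1 differed by -0.70 (GαqKO minus WT), without overlap (exact permutation test, two-sided, p = 0.1). The ratio of Tns2 to Tns1 differed by 0.11 and overlapped between the groups (exact permutation test, two-sided, p = 0.5), and it changed sign to -0.026 without WT replicate 3. Lims2 was too low for a ratio to Lims1.

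**Figure D3:**
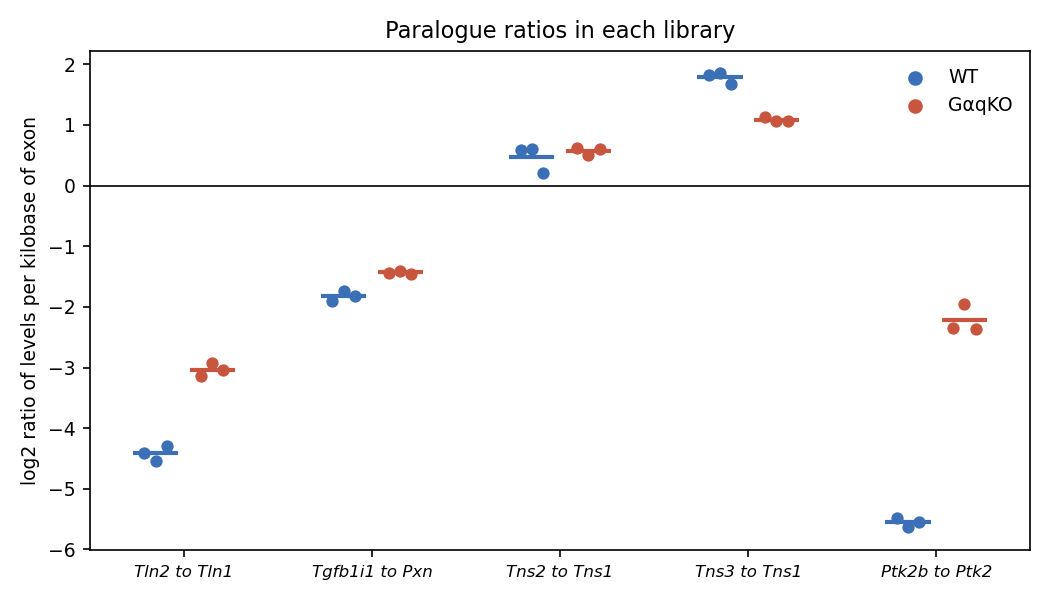
Log2 ratios of levels per kilobase of exon for 5 pairs of paralogues, with points for single libraries (WT blue, GαqKO red) and bars for group means. The Tln2 to Tln1 and Ptk2b to Ptk2 ratios are higher in every GαqKO library, the Tns3 to Tns1 ratio is lower in every GαqKO library, and the Tns2 to Tns1 ratios overlap.

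The genes that work around these scaffolds were counted in 5 lists with 68 genes, of which 62 could be tested: 19 were higher and 29 lower in GαqKO, 14 were not called, and 13 passed the study's fold threshold, 3 upward and 10 downward. These are 30.6% higher, 46.8% lower, 4.84% past the fold upward and 16.1% past it downward, beside 31.8%, 34.1%, 10.2% and 10.5% of all tested genes. With the filter of 10 applied to all 6 libraries, Parvb and Sorbs2 left the test and 11 partners were past the fold. Over all 62 partners the median log2 fold change was -0.15. In the list of 10 paralogues, 9 were tested, of which 1 was higher (Ptk2b), 5 were lower and 3 were not called. The shares were 11.1% higher and 55.6% lower, beside 31.8% and 34.1% of all tested genes. Beside the tensins, the lower ones were Fermt3, the blood cell kindlin, at 99.1 ± 21.1 against 55.2 ± 7.35 normalized counts (SD, n = 3; log2 fold change -0.82, limma adjusted p = 0.00219), and the zyxin relatives Lpp (-0.65) and Trip6 (-0.30). Of the exon bases of Fermt3, 20.4% lie in exons of other genes. Lpxn, Tns4 and Tgfb1i1 were not called, and Fermt1 was not tested.

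Around PINCH, the list of ILK, the parvins and RSU1 had 4 of 5 genes tested, 2 higher, 1 lower and 1 not called. These are 50% higher and 25% lower, beside 31.8% and 34.1% of all tested genes. Parvb, which encodes β-parvin, an actin-binding partner of ILK, stood apart with 0, 2.9 and 3.1 normalized counts in WT and 2421, 2499.8 and 2473 in GαqKO. WT held 6 Parvb reads over 3 libraries and GαqKO 4740 over 2, a ratio of 1216 with an exact 95% interval of 558 to 3314 for counting error only. Parvb entered the test through the GαqKO libraries alone. Parva, the gene of α-parvin, was at 1968 ± 41.3 and 2139.9 ± 89.0 (SD, n = 3; log2 fold change 0.12, limma adjusted p = 0.0347), a call lost in 8 of 16 alternatives. Rsu1, which binds PINCH1, was at 463.5 ± 49.7 and 370.9 ± 41.0 (SD, n = 3) with overlapping groups (log2 fold change -0.32, limma adjusted p = 0.0108, and 0.0586 without GαqKO replicate 1). Ilk itself was counted at only 37.1 ± 0.97 and 29.0 ± 6.16 (SD, n = 3; limma adjusted p = 0.203), and 90.3% of its exon bases lie in exons of Taf10 and Rrp8, so its level is uncertain. Parvg was not tested.

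In the list of FAK and paxillin signalling, 17 of 20 genes were tested, 6 of them higher, 8 lower and 3 not called. The shares were 35.3% higher and 47.1% lower, beside 31.8% and 34.1% of all tested genes. The largest rises were in Rasa1, a Ras GTPase-activating protein (log2 fold change 0.83, though 91.6% of its exon bases lie in the span of Ccnh), Src, the kinase that acts with FAK (2077 ± 18.4 to 3230 ± 93.2 normalized counts, SD, n = 3; 0.64), and Arhgef7, the exchange factor β-PIX (0.58). The largest falls were in the Src family kinase Fyn (343.0 ± 33.8 to 95.2 ± 14.5 normalized counts, SD, n = 3; -1.84), in the kinase Pak1 (-1.25) and in Bcar1, the docking protein p130Cas (4069 ± 56.5 to 2568 ± 65.6 normalized counts, SD, n = 3; -0.66). Fyn and Pak1 were past the fold threshold. The limma adjusted p of these 6 genes was 3.87e-07 or smaller.

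The list of proteins that link adhesions to actin had all 19 genes tested, 5 higher, 10 lower and 4 not called. These are 26.3% higher and 52.6% lower, beside 31.8% and 34.1% of all tested genes. The median log2 fold change of the list was -0.33. All 5 genes past the fold threshold were lower. These were Sorbs2, a vinculin-binding adaptor (391.6, 272.0 and 334.9 normalized counts in WT against 5.6, 4.6 and 6.0; -5.69, a fitted value that depends on the pseudocount), Pdlim1 (-2.65), a LIM protein on α-actinin, Fblim1 (-2.63), the gene of migfilin, which binds filamin and kindlin, Flnc (-1.47), a filamin, and Palld (-1.26), a stress fibre protein. The rises were smaller, led by the zyxin partners Enah (1507 ± 51.1 to 2769 ± 140.2 normalized counts, SD, n = 3; 0.88) and Vasp (0.45), with Sorbs3, the vinculin-binding protein vinexin, at 0.27 (limma adjusted p = 0.00189). Sorbs2 entered the test through the WT libraries alone, since its GαqKO libraries were under the filter of 10, and 68.7% of its exon bases lie in the spans of other genes. For Vasp, 23.1% of exon bases lie in exons of other genes.

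Among regulators of talin and integrin activation, 13 of 14 genes were tested, 5 higher, 5 lower and 3 not called. At 38.5% higher and 38.5% lower, this list was near the 31.8% and 34.1% of all tested genes. Apbb1ip, which encodes RIAM, a link from Rap1 to talin, had 66.8, 54.4 and 57.0 normalized counts in WT and 498.6, 594.3 and 519.6 in GαqKO (log2 fold change 3.16, SE 0.12, limma adjusted p = 3.9e-11). Kank1, a talin-binding protein at the rim of adhesions, had 364.4, 338.1 and 319.6 in WT and 31.9, 39.3 and 18.1 in GαqKO (-3.54, SE 0.22, limma adjusted p = 8.34e-09). Both were separated by far more than the spread of their libraries. Kank3 also fell (-2.07), but 98.3% of its exon bases lie in the span of Rps28. Smaller changes were higher values for Dok1 (0.68), which competes with talin for integrin tails, and Rap1a (0.33, a call lost in DESeq2 on 5 libraries, adjusted p = 0.11), and a lower value for the Rap1 exchange factor Rapgef1 (-0.54).

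**Figure D4:**
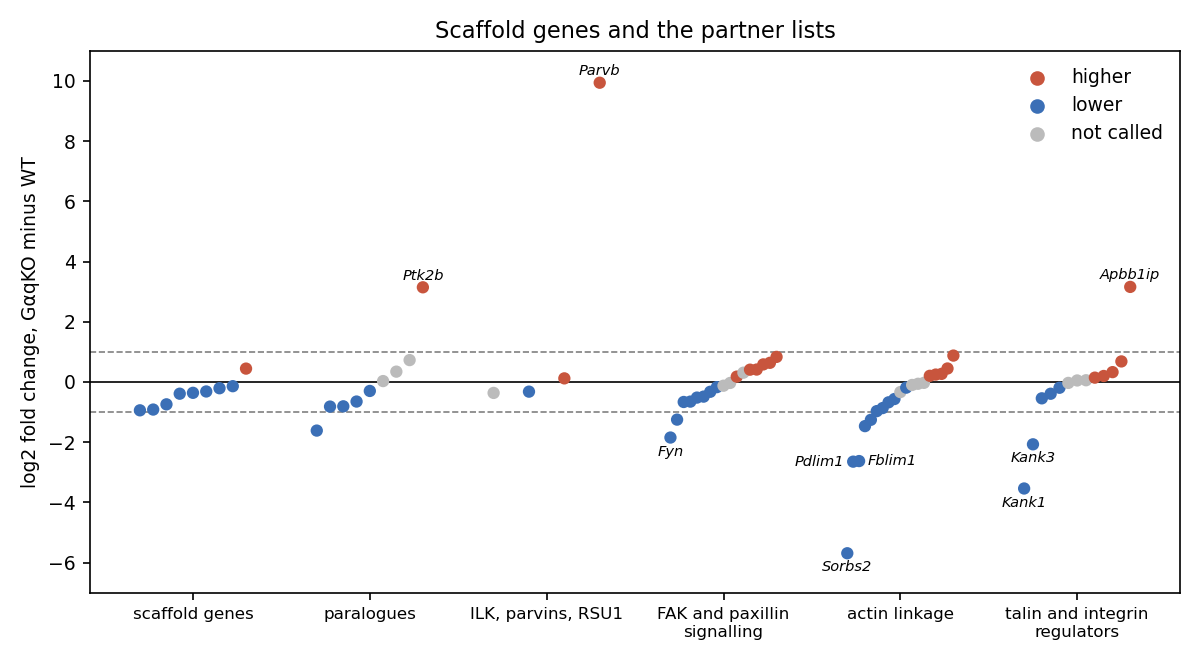
Log2 fold changes (GαqKO minus WT, limma) of the tested scaffold genes and of the tested genes in the 5 partner lists, each point 1 gene in rising order within its list, coloured by call (adjusted p under 0.05), with dashed lines at 1 in either direction. The scaffold genes lie between the dashed lines, while 13 partners lie beyond them and are called. The farthest, Parvb and Sorbs2, passed the filter only through the group where they are high, and 11 partners lie beyond the lines without them.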

How the data were processed

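The data were 6 RNA sequencing libraries of MEFs, 3 per genotype, grouped by the genotype label. RNA was poly-A selected, prepared with a stranded kit and sequenced in pairs. Per the study's methods, the authors used Rbowtie2 with GRCm39 for alignment, featureCounts with GENCODE M32 for counting and DESeq2 for differential expression. Versions and the strand setting are not given in the sources used here. The deposited values are a signal, the count of each gene divided by 1 size factor per library. Every column of the table was assigned to a sample.

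Names, coordinates and exon lengths came from GENCODE M39 on the same build, which matched 56310 of 56953 identifiers. A gene was tested where 3 or more libraries held 10 or more normalized counts. The test was limma 3.58.1 (R 4.3.3) on log2(value + 1), with a mean-dependent prior spread and Benjamini-Hochberg adjustment over the 14096 genes tested. The pseudocount makes fold changes of low genes too small. In 5 libraries 100% of values were whole multiples of 1 step (within 0.01), giving the reads, on which edgeR 4.0.16 and DESeq2 1.42.0 were run as alternatives. The reads of GαqKO replicate 3 were not used. Floors were 3 counts and, like counting intervals, cover counting error only. Replicates differed by more than counting noise (chi-square per gene 2.44 to 5.50). Paralogue ratios (levels per kilobase + 0.1) were tested by exact permutation in Python 3.11.15 with scipy 1.17.1. On simulated data limma called 100 of 100 genes changed by a large and 83 of 100 changed by a small amount, with 2 false calls among 13959 genes. Of the 100 genes changed by a small amount, edgeR called 78 and DESeq2 58. Most tested members changed by less than this small amount, so these numbers do not measure how often changes of their size are called. Far fewer genes were changed in the simulation than were called in the real libraries. The simulated counts varied independently between libraries, without the departures by gene length seen in the real libraries. The false calls therefore hold for that setting only.

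The members, partner lists and marker lists were chosen with earlier results of these data known. Named partners are the 3 largest rises and the 3 largest falls called in each list. Lpp, Trip6, Tgfb1i1, Ilk, Flnc and Palld were named after their values were seen, as were genes named only because they were not called or not tested. The alternatives covered scaling, filter, pseudocount, replicate block, prior spread, the treat test, chromosome medians and each library left out in turn.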

Additional observations from a re-analysis of the deposited data

How the results depend on the processing

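Over 16 alternative fits, the 9 tested members gave 144 values, of which 136 kept both direction and call, 8 lost the call and 0 reversed. The lost calls were Fermt2 in 7 fits and Ptk2 in DESeq2 (adjusted p = 0.103). For Fermt2 the adjusted p was 0.0539 with no filter, 0.0524 with the replicate block, 0.0692 with no trend in limma, 0.0959 without WT replicate 2, 0.13 without GαqKO replicate 3, 0.207 in edgeR and 0.372 in DESeq2, and the cause was not tested. The count tests rest on 5 libraries, and in limma on the same 5 libraries Fermt2 was not called either. Members called lower numbered 7 or 8 when each library was left out, 7 in edgeR and 6 in DESeq2, with 1 higher and 0 past the fold in each fit. Partners called numbered 13 to 20 higher and 27 to 29 lower, and 11 to 14 were past the fold. The replicate block (partners 17 higher and 28 lower) changed no other member's call. Deviations of same-numbered libraries correlated at -0.05, -0.15 and -0.06, and those of differently numbered libraries at -0.07 to 0.12. No effect shared by same-numbered libraries was seen, but whether libraries were handled in pairs cannot be told from these values. Omitting 1 library at a time put the Tns2 to Tns1 ratio difference between -0.026 and 0.18 (0.11 with all libraries), and the other 4 ratios kept their direction. Removing the chromosome medians moved Tln1, Lims1, Ptk2 and Fermt2 by over 1.5 times, as given above. Depth limits Lims2, at 1 to 3 reads per library.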
